A study of Mus musculus with 4 samples.

Results

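The circadian clock and bZIP genes Rora, Bhlhe40, Tef, Nfil3, Per1, Per2 and Clock, 7 in all, were looked up in 2 lists of N6-methyladenosine (m6A) sites from mouse heart, which name 6660 gene symbols between them. A site belonged to the set when the deposited list assigned it to one of these symbols, which gave 9 of the 10388 sites of the knockout (KO) list and 13 of the 10814 sites of the wild-type (WT) list. Both lists held sites of 6 of the 7 genes, and Per1 had none in either list. The KO hearts came from ABRO1 Knockout mice and the WT hearts from wild-type mice, both on a C57BL/6 background and with no treatment named. ABRO1 (gene symbol Abraxas2) holds together BRISC, a deubiquitinase of the cytoplasm. The labels give neither the allele, nor the cells in which the gene was lost, nor the age, sex or number of the animals. They also give no time of day for the collection of the hearts, so whether it differed between the genotypes is unknown.

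In methylated RNA immunoprecipitation sequencing, an m6A antibody enriches methylated RNA fragments, which are sequenced together with an unenriched input library. There were 4 libraries, 1 input and 1 immunoprecipitate per genotype, and each list was called from the 2 libraries of its genotype. Without replicates there was no spread between animals and no test between the genotypes. The lists carry no read counts, so the depth is unknown, and a gene without a site is not shown to be unmethylated or absent. Heart muscle markers were used to check the tissue label. Tnnt2, Ryr2, Ttn and Nkx2-5 had a site in both lists, and Myh6, Actc1 and Pln had none in either.

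The mammalian clock is a feedback loop of transcription. CLOCK and its partner BMAL1 bind E-box elements and switch on the Per and Cry genes, whose proteins then hold CLOCK and BMAL1 back. RORA activates the gene of BMAL1, BHLHE40 (also called DEC1) represses at E-boxes, and D-box elements pass the rhythm on through the activator TEF and the repressor NFIL3 (also called E4BP4). TEF carries the proline- and acid-rich domain that defines the PAR bZIP family, whereas NFIL3 is a related bZIP factor without it, so only Tef of the 7 is a PAR bZIP gene in the strict sense. The heart runs such a clock in its muscle cells, where it times metabolism and electrical activity. m6A is placed on mRNA by a writer complex, often near the stop codon, and bears on how long an mRNA lasts.

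Member sites that touch an annotated start in the RefSeq promoter table are shown with the DNA around that start, because their edges can be read against it. Per2 and Bhlhe40 are given without a sequence. The lines below give RefSeq sequence of GRCm38.p6, the assembly of mm10, from 250 bases before an annotated start to 30 bases after it, on the strand of the gene. Capitals mark the bases that lie inside the site. The Tef line is chr15:81811164-81811443 on the plus strand and its site was in both lists. The Nfil3 line is chr13:52981010-52981289 and the Clock line chr5:76304519-76304798, both on the minus strand, and their sites were in the WT list only.
Tef: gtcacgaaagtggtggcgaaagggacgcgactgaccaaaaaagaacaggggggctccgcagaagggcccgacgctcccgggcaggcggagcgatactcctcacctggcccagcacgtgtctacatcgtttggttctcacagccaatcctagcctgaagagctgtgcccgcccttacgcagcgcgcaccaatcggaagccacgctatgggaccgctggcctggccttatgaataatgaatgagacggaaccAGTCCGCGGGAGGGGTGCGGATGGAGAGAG
Nfil3: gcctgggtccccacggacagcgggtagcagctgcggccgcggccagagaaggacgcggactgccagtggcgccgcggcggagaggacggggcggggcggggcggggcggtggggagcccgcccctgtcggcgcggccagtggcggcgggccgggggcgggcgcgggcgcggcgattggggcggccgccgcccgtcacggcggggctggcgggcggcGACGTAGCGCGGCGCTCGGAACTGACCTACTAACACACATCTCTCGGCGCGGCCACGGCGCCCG
Clock: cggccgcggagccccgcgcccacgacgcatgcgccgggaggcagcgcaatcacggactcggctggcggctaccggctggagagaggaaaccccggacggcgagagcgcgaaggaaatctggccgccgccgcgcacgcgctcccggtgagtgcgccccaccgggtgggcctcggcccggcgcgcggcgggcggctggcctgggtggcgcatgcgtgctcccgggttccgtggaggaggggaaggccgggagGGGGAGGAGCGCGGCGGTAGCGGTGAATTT

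The site of Tef began at the annotated start itself, at base 81811414, in both lists. The WT site of Clock also began at an annotated start, base 76304548, whereas the WT site of Nfil3 began 34 bp upstream of one, base 52981039. Such edges were common: 12.8% of 7803 KO sites and 12.1% of 8074 WT sites in genes with a start in the RefSeq table had their 5′ edge exactly at one. The E-box CACGTG, which reads the same on both strands, occurred in the Tef window 138 bases before the start and in neither the Nfil3 nor the Clock window shown. It was in 7.15% of all 32851 promoter windows of 300 bases. The D-box TTATGNAA, searched on both strands, was in none of the 3 windows and in 3.38% of all windows.

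Among the activators of the loop, Rora had the most sites in the KO list, 3 there and 3 in the WT list. Rora encodes a nuclear receptor (gene ID 19883, chromosome 9, 68653404 to 69388246, plus strand). Its site closest to the 5′ end lay at 69289715 to 69290048 in the KO list, at a fold enrichment of 22.1 (score 668), against 69289758 to 69290048 in the WT list, at 25.2 (score 694). Fold enrichment is the authors' linear ratio of immunoprecipitate over input for a site in its own list, and the score is minus 10 times the log10 of their peak caller's p. This was the site with the largest fold among the members in both lists, above 91.4% of KO sites and 91.1% of WT sites when ranked with all sites of its list.

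Both other Rora sites had higher folds in the KO list. The site at 69348132 to 69348217 had a fold of 13.1 in the KO list and 11.2 in the WT list, with scores of 403 (KO) and 275 (WT). The site at 69364166 to 69364561 had a fold of 13.2 in the KO list and 10.8 in the WT list, with scores of 697 (KO) and 309 (WT). The edges of both sites were identical in the lists. The 3 sites lay between 86.6% and 96.7% of the way along the gene, within a span of 734843 bp, and none lay near its annotated 5′ end. Spans include introns, and without an exon annotation the sites could not be placed in exons, introns, coding sequence or UTRs.

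Clock, which encodes the bHLH-PAS partner of BMAL1 (gene ID 12753, chromosome 5, 76209868 to 76305603, minus strand), had 1 KO site and 2 WT sites. The shared site, 76226933 to 76227227 in both lists, had a KO fold of 6.96 and a KO score of 280, against 8.82 and 275 in the WT list. It lay 82.0% of the way along the span, and the scores in the lists were close. The second WT site, 76304368 to 76304548, is the one at an annotated start. Its fold was 7.59 and its score 125. The closest KO site on that strand was the shared Clock site, 77141 bp away.

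**Figure D1:**
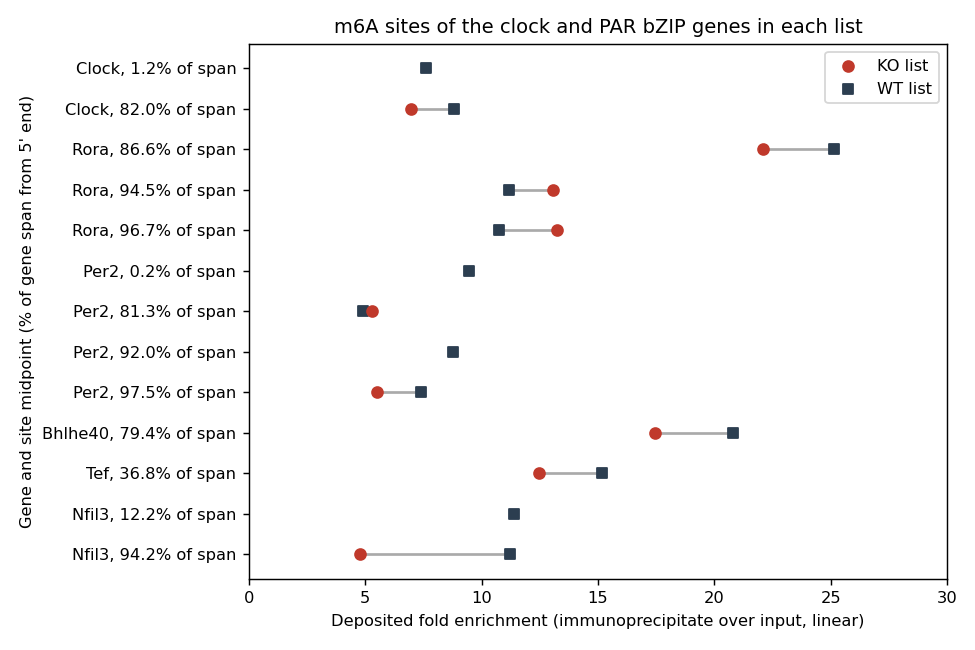
Deposited fold enrichment (linear, x axis) of every site of the member genes, one row per locus, with the KO list as circles and the WT list as squares joined by a line where the sites overlap; a lone square is a WT site without an overlapping KO site. The widest gap is that of the 3′ site of Nfil3, at 4.75 in the KO list and 11.2 in the WT list, and both downstream Rora sites and 1 Per2 site have the KO value on the right.

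The repressors of the loop differed in how many sites they had. Per1 (gene ID 18626, chromosome 11, 69095108 to 69109965), a light- and hormone-induced partner of the Cry proteins, had no site, and no site of any other gene lay within its span in either list. Per2 (gene ID 18627, chromosome 1, 91415977 to 91459351, minus strand), its paralogue, had 2 KO and 4 WT sites. The site nearest to the 3′ end ran from 91416254 to 91418020 in the KO list, where the fold was 5.49 and the score 190, and from 91416071 to 91418020 in the WT list, where they were 7.41 and 199. The WT interval was longer on its 3′ side, ending 94 bp from the end of the gene, whereas the KO interval ended 277 bp from it. The other shared Per2 site, 91423690 to 91424486, had a fold of 5.29 in the KO list and 4.89 in the WT list, with scores of 52.1 in the KO list and 92.7 in the WT list. No more than 1.24% of KO sites had a score as low as that of this KO site.

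Both WT-only sites of Per2 were short and had low scores. The one at 91459173 to 91459330 began 21 bp from the 5′ end of the gene; its fold was 9.46 and its score 142. The one at 91419375 to 91419525 lay 92.0% of the way along the span; its fold was 8.78 and its score 94.9. The nearest KO sites on that strand were other Per2 sites, 34687 bp and 1355 bp away.

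Bhlhe40 had the strongest site of the set by score. This E-box repressor (gene ID 20893, chromosome 6, 108660629 to 108666925, plus strand) had 1 site per list, from 108664479 to 108666477 in the KO list and from 108664479 to 108666784 in the WT list. The fold was 17.5 in the KO list and 20.8 in the WT list, and the score was 3100 in both, a value shared by 872 KO and 911 WT sites, so the score does not rank them. The site began at the same base in both lists, and it covered 1999 bp in the KO list and 2306 bp in the WT list of a gene of 6297 bp. Its deposited false discovery rate was 100% in the KO list and 83.3% in the WT list. Every other member site had a rate of 100%, as did 99.97% of all KO sites and 82.9% of all WT sites. These rates stood beside member scores of up to 3100. No site was kept or dropped by its rate here, and what the rates say about the calls was not tested.

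Of the D-box factors, Tef, the activator (gene ID 21685, chromosome 15, 81802673 to 81826863, plus strand), had 1 site with identical edges in both lists, 81811414 to 81811720. Its fold was 12.5 in the KO list and 15.2 in the WT list, with scores of 167 (KO) and 407 (WT). The site lay 36.8% of the way along the span, where Tef has an annotated start 8741 bp inside the gene.

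Nfil3, the repressor that competes at D-boxes (gene ID 18030, chromosome 13, 52967209 to 52982878, minus strand), had the largest gap between the lists. Its long site at the 3′ end ran from 52967230 to 52969021 in the KO list, where its fold was 4.75 and its score 83.6. In the WT list it ran from 52967209, the last annotated base of the gene, to 52969021, where its fold was 11.2 and its score 828. The KO site thus stood above 14.1% of KO sites by fold, and the WT site above 62.0% of WT sites, while 1792 bp of the intervals were shared. The second Nfil3 site, at 52980861 to 52981073 in the WT list only, was enriched 11.4-fold at a score of 88.4, and the closest KO site on that strand was the 3′ site 11840 bp away.

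**Figure D2:**
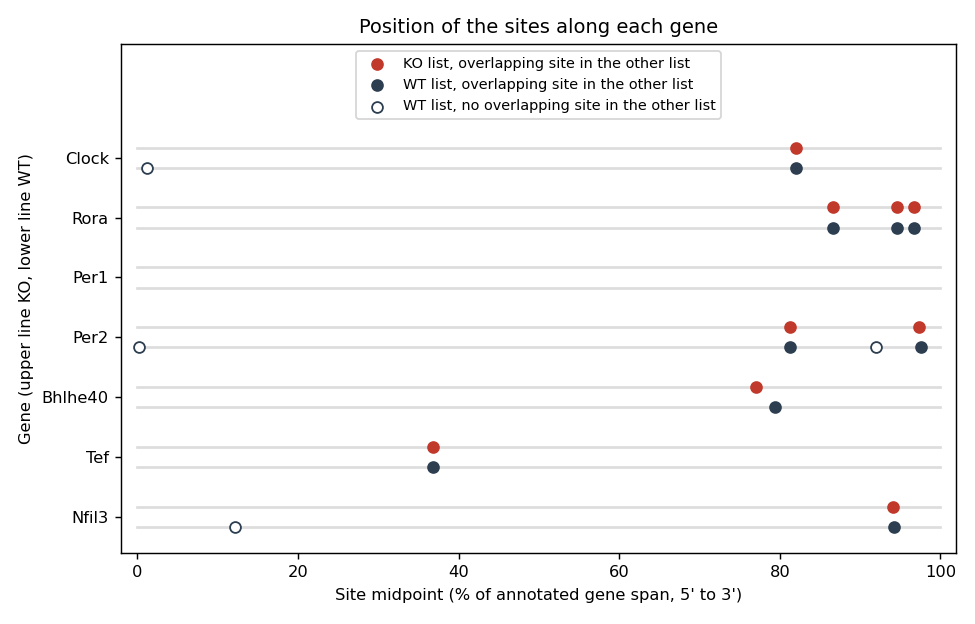
Midpoint of each site as a percentage of the annotated gene length, counted from its 5′ end (x axis), with the KO list on the upper and the WT list on the lower line of each gene; filled points overlap a site of the other list and open points do not. The shared sites lie at 77.0% of the span or beyond it except for Tef at 36.8%, and the 3 open points of Clock, Per2 and Nfil3 on the left are WT sites in the first 20% of the span.

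The lists were then compared pair by pair, where sites on the same strand that shared 1 bp or more made a pair. All 9 KO sites overlapped a WT site of the same gene, and 9 of the 13 WT sites overlapped a KO site, in 5 cases with identical edges. Of all KO sites, 19.6% had no overlapping WT site, and of all WT sites, 22.8% had no overlapping KO site. The members' unmatched shares were 0 of 9 in the KO list (exact 95% binomial interval up to 33.6%) and 4 of 13, or 30.8%, in the WT list (9.09% to 61.4%). The intervals account for counting error alone and take no account of sites sharing a gene. Both held the share of the whole list. With 9 KO sites a lower share could not have been shown, since 0 is the lowest possible count and its interval reached 33.6%. Per2, Nfil3 and Clock had more WT than KO sites, as had 26.6% of the 6660 symbols, and Rora, Bhlhe40 and Tef had equal numbers, as had 51.8%. None of the 6 members with a site had fewer WT than KO sites, as 21.7% of the symbols had. With 6 genes, these counts were too few to tell whether the members differed from the lists as a whole.

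The 4 unmatched WT sites had scores between 88.4 and 142, whereas the WT list had a median of 266. Among WT sites with a score within 1.41 times that of the site in question, the share without an overlapping KO site was 31.4% for the 5′ site of Per2, 35.4% for Clock, 45.1% for the inner site of Per2 and 47.4% for Nfil3. A site of such a score was thus often missing from the other list. The 3 member sites in the first 20% of a gene span were all in the WT list and all unmatched. The shares over the lists rest on the 9764 KO and 10150 WT sites with a midpoint inside the RefSeq span of their gene. In the first 20% of the span, 21.5% of the 2556 KO sites and 22.3% of the 2592 WT sites were unmatched. For sites in the rest of the span these shares were 18.9% in the KO list and 22.8% in the WT list.

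**Figure D3:**
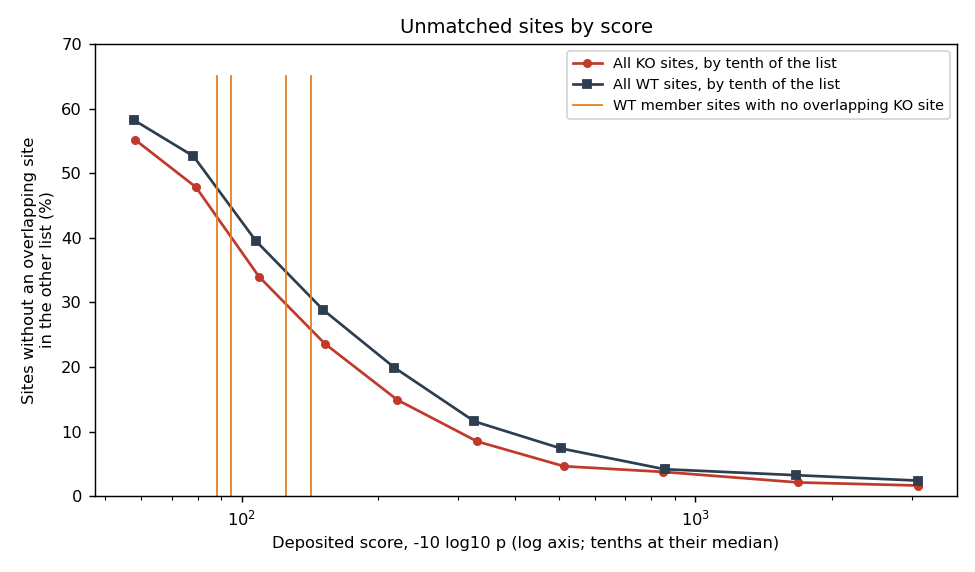
Share of sites unmatched in the other list (y axis, percent) for 10 equal parts of the KO and WT lists by deposited score (x axis, logarithmic), with vertical lines at the scores of the 4 WT member sites that had no overlapping KO site. The share falls with the score, from 55.1% in the KO list and 58.2% in the WT list in the weakest part to 1.64% in the KO list and 2.40% in the WT list in the strongest, and the 4 lines stand in the lower part of the score range.

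The folds of the paired sites were set against those of all pairs. Over all 8370 pairs the median ratio of KO over WT fold was 0.822, with quartiles of 0.675 and 1.01 (the median is -0.28 on the log2 scale). Over the 9 member pairs the median ratio was 0.839. The ratio was below 1 in 6 of the 9, and in 73.7% of all pairs. A pair was counted as past the fold when the ratio reached 1.5 either way. Of the 9 pairs, 1 was past it with the lower fold in the KO list, Nfil3, and 23.8% of all pairs were past it in that direction. None of the 9 was past it with the higher fold in the KO list, where 4.67% of all pairs were. Either way, 1 of 9 compares with 28.4% of all pairs. With 9 pairs, these counts were too few to tell whether the members differed from the lists as a whole.

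Relative to the median of all pairs, the members lay on both sides. The Nfil3 ratio of 0.423 became 0.515 after division by that median, and it was the only member ratio past 1.5-fold on either scale. Its KO site scored below 100, so with a minimum score of 100 no Nfil3 pair was left. A ratio as low or lower was found in 228 of all pairs, or 2.72%, and in 4.05% of the 1236 pairs with a like WT score. These shares are for the lowest of the member ratios, not for a pair singled out beforehand. The Nfil3 score ratio was 0.101. Both a fold ratio and a score ratio as low or lower were found in 10 of all pairs, Nfil3 among them. That count was made after the Nfil3 values were seen. No KO site scored below 50.02, so pairs with a weak WT site could not reach such a score ratio. The 10 are thus no measure of how rare the Nfil3 pair was among pairs with a like WT score. The ratios of Tef (0.822, or 1.00 relative to all pairs), Bhlhe40 (0.839, or 1.02) and Clock (0.789, or 0.960) lay close to the median of the lists.

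The Rora ratios were 0.877, 1.17 and 1.23 from the 5′ to the 3′ site, and 1.07, 1.42 and 1.497 relative to all pairs. Thus the first Rora site had a lower fold in the KO list as deposited and a higher one relative to the lists, while both others were higher in the KO list on either scale. The 3′-most Rora ratio of 1.23 was at or above that of 88.8% of all pairs. Per2 had one pair on each side, 1.08 at the inner shared site (1.32 relative to all pairs) and 0.741 at the 3′ site (0.901). A fold belongs to a site in its own list and rests on the input of its own genotype, so the ratios compare list entries and are no measure of how far methylation changed. What part the levels of the transcripts had in them was not tested.

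**Figure D4:**
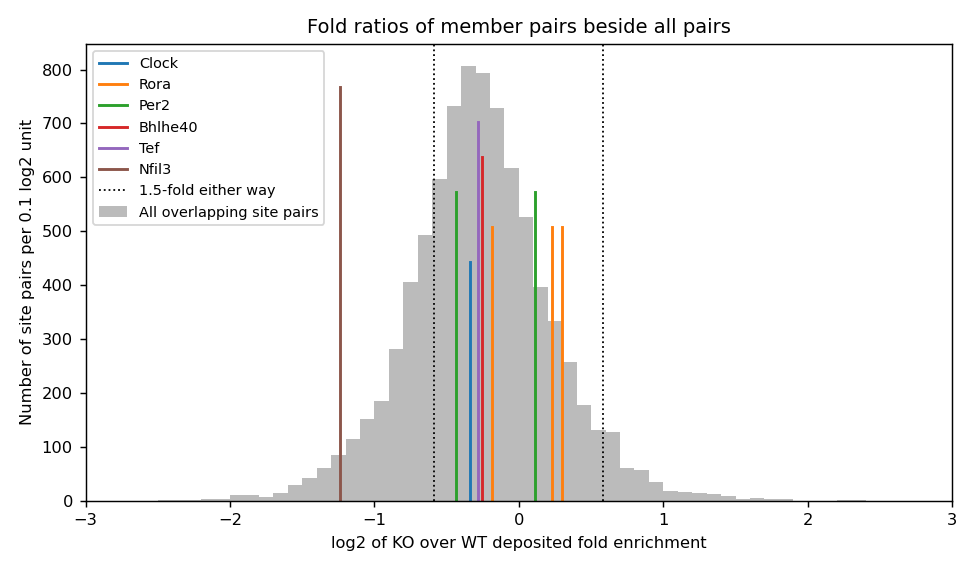
Distribution of the log2 ratio of KO over WT fold over all overlapping site pairs (grey bars, number of pairs per 0.1 log2 unit, shown from -3 to 3), with coloured lines at the 9 member pairs and dotted lines at 1.5-fold either way; the heights of the coloured lines have no meaning. Nfil3, at -1.24, lies beyond the dotted line on the left, and the other 8 pairs lie between the dotted lines.

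The other genes of the clock were taken from a list of 24 symbols. Sites in both lists were found for 11 of them, in the KO list alone for 1, in the WT list alone for 0 and in neither for 12. Thus 11 of the 12 with any site were in both lists, as were 74.4% of all 6660 symbols with a site in either. The genes without a site included Arntl, which encodes BMAL1, its relatives Arntl2 and Npas2, the repressors Cry1, Per3, Nr1d1 and Ciart, the receptor gene Rorb, the PAR bZIP gene Dbp, and Fbxl21. Skp1a is counted among the 12, but it was the 1 symbol of the 24 that is no current symbol in the RefSeq gene table, and it was searched under that name only. The genes that did have sites thus came from several arms of the loop.

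Hlf, the PAR bZIP relative of Tef, had 1 site with identical edges in both lists (chromosome 11, 90387786 to 90388207), with a fold of 5.09 in the KO list and 6.81 in the WT list. Nr1d2, which encodes the repressor REV-ERB beta that opposes RORA, had a fold of 6.54 in the KO list and 8.67 in the WT list. Bhlhe41, the paralogue of Bhlhe40, had 7.78 in the KO list and 7.71 in the WT list. These relatives of the members had 1 site per list, and the ratios were 0.747, 0.754 and 1.01.

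Genes of the kinases and ubiquitin ligases that set the stability of PER, and further regulators, also had sites. The site with the highest score in the kinase gene Csnk1d had a fold of 25.1 in the KO list and 18.8 in the WT list, and that of Csnk1e 6.74 in the KO list and 10.5 in the WT list. Btrc, whose product marks PER for breakdown, had 5.67 in the KO list and 9.66 in the WT list. The gene of the deubiquitinase USP2, a clock-controlled regulator of clock proteins, had 14.8 in the KO list and 23.1 in the WT list, the kinase gene Gsk3b had 4.93 in the KO list and 6.06 in the WT list, and Timeless, which acts at replication forks, had 10.2 in the KO list and 15.2 in the WT list. Over the 13 pairs of the list the median ratio was 0.773, with 3 past 1.5-fold lower in the KO list, those of Csnk1e, Btrc and Usp2, and 0 past 1.5-fold higher. The share of all pairs past it on the low side, 23.8%, was about the same as that of these 13.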

How the data were processed

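Site lists were analysed from hearts of ABRO1 Knockout and wild-type mice. The submitters' processing notes list HISAT2 2.0.4, cutadapt 1.9.3 and the build mm10. Sites are named after MACS, a peak caller, whose settings the sources used here do not state. The labels name a directional NEBNext kit and the design text a stranded KAPA kit. Per the file headers, the deposited values per site were a score (minus 10 times the log10 of p), a linear fold ratio and a false discovery rate in percent. Deposited starts count from 0, since 1155 sites then began exactly at a RefSeq gene start (51 otherwise); coordinates here are 1-based.

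Sites were paired with bedtools 2.31.1 (1 bp, same strand); Python 3.11.15, pandas 2.3.3 and scipy 1.17.1 did the rest. The pairing was checked on simulated data. All 7 members matched the RefSeq gene table and 5 its promoter table. Each member and each gene of the wider clock list with a site was to be named; a few genes of the lists are not reported here. Likeness to other genes was not computed, since each gene has only 2 lists. The members and lists were chosen with earlier results of these data known.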

Additional observations from a re-analysis of the deposited data

How the results depend on the processing

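Pairing by identical start and end left 5 paired sites in each list, with 4 KO and 8 WT sites unmatched, and 0 pairs past 1.5-fold, because the Nfil3 edges differed. Under that rule 43.2% of all KO sites and 45.4% of all WT sites were unmatched, and 22.4% of all pairs were past 1.5-fold lower in the KO list and 4.93% higher. With a score of at least 100 the count past the fold was also 0, because the KO site of Nfil3 was left out. With a threshold of 0.8 on the ratio or its inverse it was 3, the added pairs being 0.741 at Per2 and 0.789 at Clock; 56.7% of all pairs were past that threshold. Over the 5 pairs with identical edges the median member ratio was 1.08, against 0.831 over all pairs with identical edges. It was 0.839 under the other alternatives (score, equal list length, overlap of 50% of both sites, either strand). Relative to all pairs it was 1.02, on a scale where the median of all pairs is 1. Divided by the median ratio, 9.63% of all pairs were past 1.5-fold lower in the KO list and 11.1% higher, against 23.8% and 4.67% as deposited. Of 90 recomputed values, 7 counts differed by more than 1.5 times, and 0 ratios past 1.5-fold changed to the other side. The ratio of a single pair is set by its deposited folds. Other settings than division by the median could only keep or drop the pair, so the 0 is no measure of stability. No paired analysis was possible because each group had 1 library. Depth is unknown, and its part in which sites were called was not tested.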

Other observations

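In the wider clock list, 3 of 16 KO sites and 5 of 18 WT sites were unmatched, near the 19.6% of all KO sites and 22.8% of all WT sites, and they were spread over several genes. Cry2, a partner of the PER proteins, had 1 site in each list and these did not overlap: the KO site lay at chromosome 2, 92405565 to 92405820, where the fold was 3.64 and the score 62.9, and the WT site at 92404410 to 92405366, where they were 8.25 and 323. Usp2 had an unmatched site near its 5′ end in each list, at chromosome 9, 44069429 to 44069531 in the KO list (fold 10.7, score 134) and at 44068038 to 44068295 in the WT list (fold 9.83, score 108). Tipin, the partner of Timeless, had a weak site in the KO list only (fold 4.47, score 57.9). Csnk1e had 2 unmatched WT sites, with folds of 7.33 and 15.9 and scores of 77.5 and 165, and Btrc had 1 at its 5′ end (fold 5.18, score 57.2).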
